A study of Mus musculus with 12 samples.

Results

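The hedgehog genes described here are Ptch1, Smo, Sufu, Gli1, Gli2 and Gli3, 6 of the 24421 gene symbols in the count table. They were chosen by symbol because GLI1 is a described substrate of FEM1B, a receptor subunit of the CUL2 ubiquitin ligase, and 5 of the 6 had 10 or more counts in at least 3 of the 12 libraries. All 12 were made from KP, lung adenocarcinoma cells of the mouse, and every group, controls included, carries the line's engineered alleles, among them Trp53flox/flox. By CRISPR/Cas9, knockout cells carry sgBACH1, a guide to Bach1, and control cells sgCTRL, a control guide. Each was transfected for 48 hours with siFEM1B, an siRNA to Fem1b, or with siCTRL, a control siRNA. The 4 groups are therefore sgCTRL_siCTRL, sgCTRL_siFEM1B, sgBACH1_siCTRL and sgBACH1_siFEM1B, each with 3 replicates that the design text calls biological. The labels name 1 control line and 1 knockout line, so a difference between genotypes and a difference between the lines cannot be told apart, and whether replicates were separate cultures is not stated. If they were not, the p-values measure only the spread between these libraries.

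In the hedgehog pathway, a secreted ligand binds the membrane receptor PTCH1, which otherwise holds the membrane protein SMO inactive. Active SMO, working at the primary cilium, frees the GLI transcription factors from the inhibitor SUFU. GLI2 and GLI3 are processed to repressors or act as activators, while GLI1 acts as an activator, and Gli1 and Ptch1 are themselves classical targets of the pathway. In the lung the ligand is known as a signal from epithelium to mesenchyme. The counts measure RNA, so an effect of FEM1B on GLI1 protein would not be seen in them directly.

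Total counts ranged from 16539168 to 22196999 per library. Levels are given as CPM, counts relative to the library total after that total was scaled by its TMM factor. Fem1b was at 157 to 167 CPM in sgCTRL_siCTRL and 43.0 to 57.9 CPM in sgCTRL_siFEM1B, and at 136 to 141 CPM in sgBACH1_siCTRL and 46.2 to 54.4 CPM in sgBACH1_siFEM1B. Bach1 RNA was at 29.5 to 33.6 CPM in sgCTRL_siCTRL and 27.6 to 31.0 CPM in sgBACH1_siCTRL, and since a CRISPR lesion need not lower its transcript this does not check the knockout. The epithelial markers Krt7, Krt8, Krt18, Krt19, Cdh1, Cldn4 and Epcam summed to between 7080 and 9380 CPM over the 12 libraries. All 7 were kept for testing. However, Epcam had 0 to 2 counts per library in control cells, so it was kept only through the knockout libraries. The alveolar and airway markers were near 0: none of 7 was kept for testing, and Nkx2-1, Sftpa1 and Sftpd had no count in any library.

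Per kilobase of exon, the order of the hedgehog genes was the same in the 4 groups: Smo, Sufu, Gli3, Ptch1 and Gli1. In sgCTRL_siCTRL the levels were 23.4 ± 0.847 CPM per kb (SD, n = 3) for Smo and 7.83 ± 0.403 for Sufu. Gli3 stood at 1.52 ± 0.086 CPM per kb, Ptch1 at 1.27 ± 0.051 and Gli1 at 0.111 ± 0.021. Neighbours in this order did not overlap between libraries, except Gli3 and Ptch1 in sgCTRL_siFEM1B. Lengths count every annotated exon base, 14185 for Ptch1 and 9589 for Gli3, and the order of these genes in sgCTRL_siCTRL depends on them. In CPM, Ptch1 lay above Gli3 there, at 17.4 to 18.8 against 14.0 to 15.5. In both knockout groups Gli3 lay above Ptch1 in CPM too. Among 12769 tested genes with a length, 78.4% lay below Smo and 4.31% below Gli1 in sgCTRL_siCTRL, so the signal transducer was among the more abundant transcripts and Gli1 among the rarest tested. Gli2 (chromosome 1, 118834132 to 119053619, mm10) had 0 counts in all 12 libraries, which over their summed depth allows a level of up to 0.0124 CPM. This limit, like the intervals on summed counts below, covers counting error only.

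**Figure D1:**
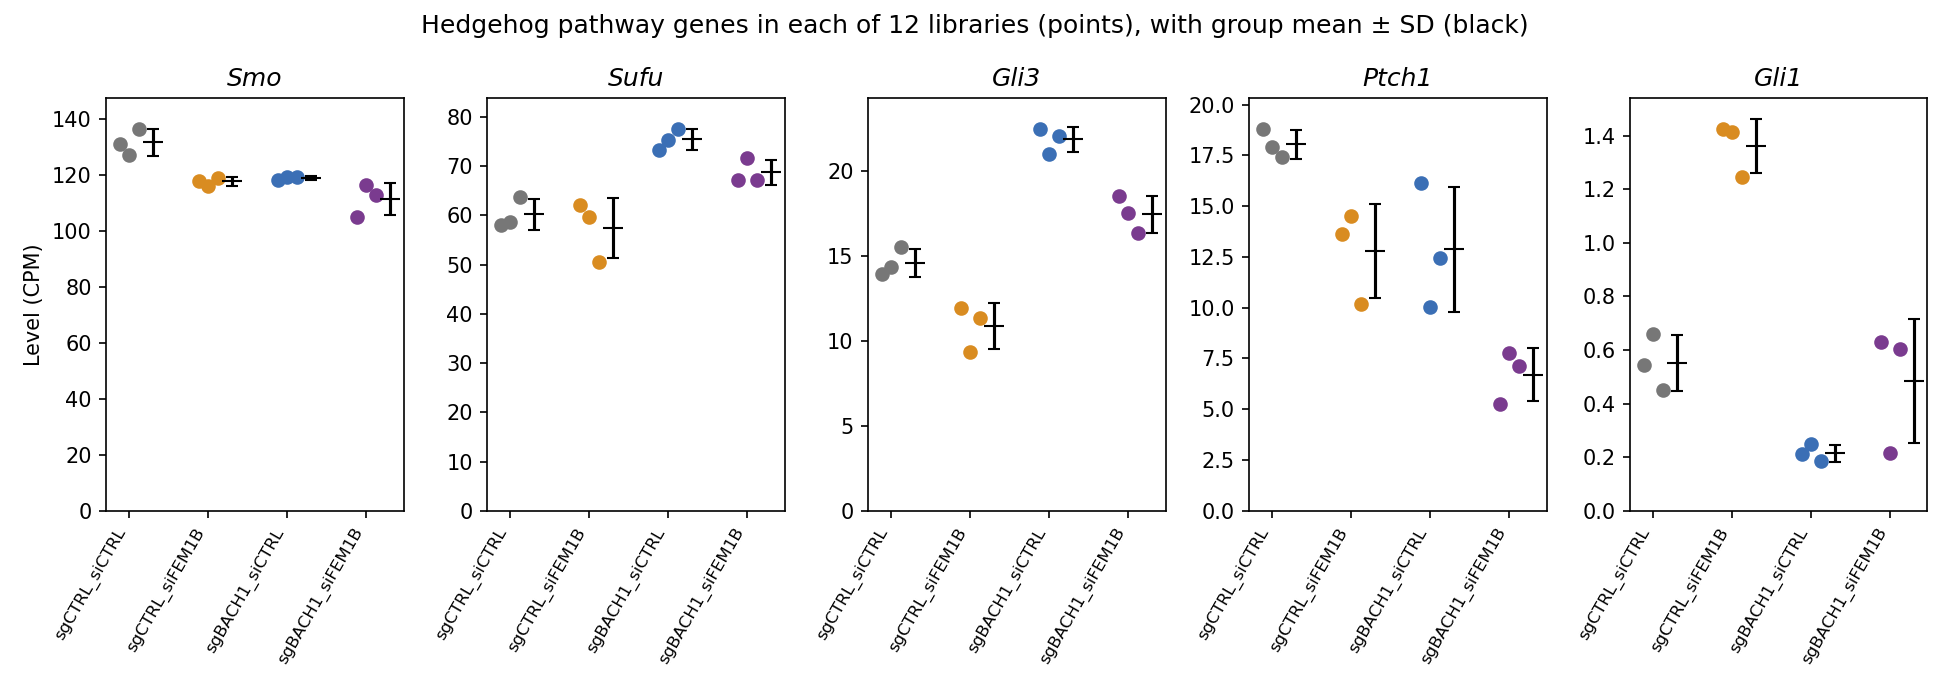
Level in CPM (vertical axes, from 0, different for each gene) of Smo, Sufu, Gli3, Ptch1 and Gli1 in the 12 libraries, as points by group, with the group mean and SD in black (n = 3). Gli1 is highest in sgCTRL_siFEM1B, at 1.25 to 1.43 CPM, while Ptch1 is lowest in sgBACH1_siFEM1B, at 5.24 to 7.77 CPM.

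FEM1B siRNA was compared with control siRNA to ask how these transcripts stand when Fem1b is lowered. In control cells Gli1 RNA rose while Ptch1, Smo and Gli3 RNA fell, so 4 of the 5 tested genes were called (adjusted p under 0.05), 1 higher and 3 lower. Of all 13281 genes tested 45.0% were called, 22.1% higher and 22.9% lower. Ptch1 and Gli3 fell again in knockout cells and the other 3 were not called, a count of 2 of 5 against 41.7% of all genes, 21.9% higher and 19.8% lower. These shares of 5 genes are too small a base to set the pathway apart from the background.

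Ptch1, the ligand receptor and a GLI target (chromosome 13, 63508328 to 63573598), was at 18.8, 17.9 and 17.4 CPM in the replicates of sgCTRL_siCTRL and at 13.6, 14.5 and 10.2 CPM in sgCTRL_siFEM1B. In knockout cells it was at 16.2, 10.0 and 12.4 CPM with control siRNA and at 5.24, 7.77 and 7.12 CPM with FEM1B siRNA. Every library with FEM1B siRNA lay below every library of the same cells with control siRNA. Such a separation was seen for 52.1% of genes in control cells and 51.5% in knockout cells. The log2 fold change was −0.49 ± 0.15 (SE) in control cells (edgeR quasi-likelihood test, adjusted p = 0.0134) and −0.94 ± 0.17 (adjusted p = 0.000204) in knockout cells. In control cells the call ended without replicate 3 of sgCTRL_siFEM1B (log2 fold change −0.34, adjusted p = 0.085) and with the median change of its chromosome removed (adjusted p = 0.0529), within a range of 0.000128 to 0.085 over 20 alternatives. In knockout cells the call held in all 20.

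Smo, the signal transducer (chromosome 6, 29735503 to 29761365), moved little. It was at 131, 127 and 136 CPM in sgCTRL_siCTRL and 118, 116 and 119 CPM in sgCTRL_siFEM1B, lower by −0.16 ± 0.05 on the log2 scale (adjusted p = 0.0167). The groups did not overlap, but the difference was small and the call ended in 3 of 20 alternatives: with chromosome medians removed, and without replicate 3 of sgCTRL_siCTRL or replicate 2 of sgCTRL_siFEM1B (adjusted p = 0.0551, 0.0853 and 0.053, within a range of 0.0125 to 0.0853). In knockout cells it was at 118, 119 and 119 CPM against 105, 116 and 113 CPM with FEM1B siRNA. Here too the groups did not overlap, and the change was not called, at −0.09 ± 0.05 (adjusted p = 0.163).

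Sufu, the inhibitor that binds GLI proteins (chromosome 19, 46396896 to 46488804), was not called with FEM1B siRNA in either genotype. It was at 58.1, 58.7 and 63.8 CPM in sgCTRL_siCTRL and 62.1, 59.6 and 50.5 CPM in sgCTRL_siFEM1B, where the libraries overlapped. The log2 fold change was −0.07 ± 0.07 (adjusted p = 0.477), with an approximate 95% interval of −0.22 to 0.08. In knockout cells it was −0.13 ± 0.07 (adjusted p = 0.135), with an interval of −0.28 to 0.01, and the change was called without replicate 3 of sgCTRL_siFEM1B (adjusted p = 0.0414) and in a fit to the 6 libraries compared (0.0433), within a range of 0.0414 to 0.306.

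Gli3, which yields the main repressor form of the family (chromosome 13, 15463235 to 15730026), fell in both genotypes. It was at 14.0, 14.4 and 15.5 CPM in sgCTRL_siCTRL and at 12.0, 9.36 and 11.3 CPM in sgCTRL_siFEM1B. In knockout cells it was at 22.5, 21.05 and 22.1 CPM with control siRNA and at 18.5, 17.5 and 16.3 CPM with FEM1B siRNA. The groups compared did not overlap in either genotype. The log2 fold changes were −0.42 ± 0.10 (adjusted p = 0.00236) in control cells and −0.32 ± 0.10 (adjusted p = 0.0114) in knockout cells. The call in knockout cells ended without replicate 3 of sgBACH1_siFEM1B (adjusted p = 0.0528, the highest of a range that began at 0.00613), and the call in control cells held in all 20 alternatives.

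Ptch1 and Gli3 lie on the same chromosome, whose median gene had a log2 fold change of −0.09 in control cells and −0.08 in knockout cells. Because these are the members that fell in both genotypes, the RefSeq promoters of their start sites are shown (GRCm38.p6, 250 bases before to 50 after the start, 5′ to 3′ on the gene's strand), Ptch1 at chr13:63565686-63565985 on the minus strand and Gli3 at chr13:15463473-15463772 on the plus strand. Capitals mark the letters GGGCGG, the GC box bound by SP1.
Ptch1: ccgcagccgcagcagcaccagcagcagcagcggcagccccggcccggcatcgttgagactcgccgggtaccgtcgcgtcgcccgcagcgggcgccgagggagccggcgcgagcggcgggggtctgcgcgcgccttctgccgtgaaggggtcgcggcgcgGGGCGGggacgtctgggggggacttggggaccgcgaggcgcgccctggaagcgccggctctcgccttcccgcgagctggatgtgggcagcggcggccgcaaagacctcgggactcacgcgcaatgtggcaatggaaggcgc
Gli3: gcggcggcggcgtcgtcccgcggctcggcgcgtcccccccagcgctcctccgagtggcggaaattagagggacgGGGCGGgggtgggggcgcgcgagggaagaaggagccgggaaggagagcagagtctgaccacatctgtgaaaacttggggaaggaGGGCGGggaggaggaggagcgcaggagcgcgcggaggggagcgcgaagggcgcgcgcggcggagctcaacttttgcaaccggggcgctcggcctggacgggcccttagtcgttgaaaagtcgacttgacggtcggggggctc
Both are rich in CpG dinucleotides, with 47 in the Ptch1 promoter and 39 in that of Gli3, against a median of 7 over 32851 promoters. The GC box, searched on both strands, occurs once or more in 35.7% of those promoters. The promoters of Gli2, Smo and Sufu also lay above the CpG median, with 28, 17 and 12. Those of Gli2 and Sufu held a GC box too, so neither feature is particular to Ptch1 and Gli3. Of the 6 genes, 5 had an entry, and Gli1 had none. None of the 5 held the GLI site GACCACCCA, the MAF recognition element or the antioxidant response core TGACNNNGC on either strand, which 0.253%, 0.155% and 12.4% of all promoters hold. The Ptch1 start site used here lies 7863 bases inside the gene's outermost annotated start, so other Ptch1 promoters were not searched.

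Gli1, the activator (chromosome 10, 127329882 to 127341974), was measured at very low counts. In control cells it had 12, 14 and 9 counts with control siRNA and 32, 29 and 23 counts with FEM1B siRNA, or 0.546, 0.659 and 0.451 against 1.43, 1.41 and 1.25 CPM. The groups did not overlap. Over the 3 libraries the sum was 35 counts with control siRNA (exact 95% Poisson interval 24.4 to 48.7) and 84 with FEM1B siRNA (67.0 to 104). The log2 fold change was 1.29 ± 0.35 (adjusted p = 0.00463), and the call held in all 20 alternatives.

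In knockout cells Gli1 had 4, 5 and 4 counts with control siRNA and 13, 4 and 10 counts with FEM1B siRNA. Replicate 2 of sgBACH1_siFEM1B was as low as the controls, while the other libraries were above them. The change was 1.15 ± 0.50 on the log2 scale and was not called (adjusted p = 0.0731), but it was called without that replicate, at 1.501 (adjusted p = 0.0217, the lowest of a range up to 0.262). The filter on low counts asks for 0.494 CPM or more in at least 3 libraries of any group. Gli1 reached that level in 7 libraries, the 3 of sgCTRL_siFEM1B and 4 of other groups, so it would also pass without the group where it is highest.

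Gli1 shares exon bases with genes of the opposite strand, 62 with Arhgap9 and 265 with Gm47200. Whether counting used strand is not given in the sources used here, so reads of these genes may not be told apart. Arhgap9 had 6, 11 and 9 counts in sgCTRL_siCTRL and 16, 8 and 17 in sgCTRL_siFEM1B, where the libraries overlapped. In knockout cells it had 4, 5 and 5 counts with control siRNA and 8, 11 and 7 with FEM1B siRNA, without overlap. Its counts were also lower in knockout than in control cells under control siRNA, without overlap, while under FEM1B siRNA the genotypes overlapped. Counts of Gm47200, which shares more bases, were not examined. The part of Arhgap9 or Gm47200 reads in the Gli1 counts was not tested. Of markers of other cells, the leukocyte list summed to 7.64 to 9.70 CPM in sgCTRL_siCTRL and 21.5 to 30.3 CPM in sgCTRL_siFEM1B, moving in the direction of Gli1. Nearly all of that sum was Cd68, the 1 of 7 markers kept for testing; the pan-leukocyte marker Ptprc had 0 to 9 counts and Cd3e none. Cd68 was also higher with FEM1B siRNA in knockout cells, by 0.76 ± 0.16 (adjusted p = 0.000625). Of the fibroblast markers Pdgfra rose in control cells, from 1, 2 and 2 to 9, 12 and 5 counts (2.33 ± 0.65, adjusted p = 0.00643), while Col1a1 fell (−0.31 ± 0.09, adjusted p = 0.011). The part of these markers in the result was not tested. In bulk RNA, fewer cells of a type and less RNA per cell cannot be told apart.

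**Figure D2:**
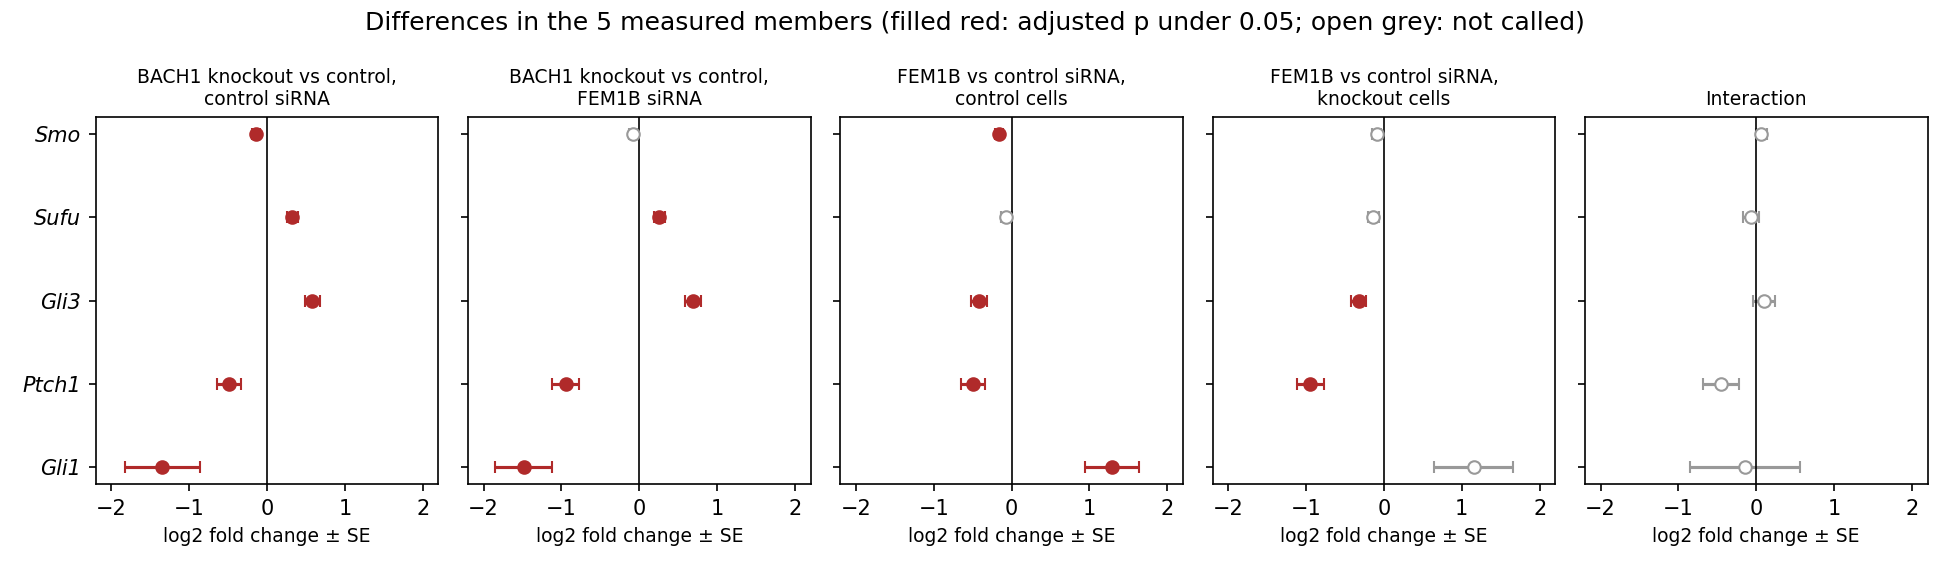
Log2 fold change with SE (horizontal axes) of the 5 tested genes in the 5 comparisons, filled red where the adjusted p was under 0.05 and open grey where it was not. With FEM1B siRNA in control cells Gli1 lies at 1.29 and Ptch1 at −0.49, and between genotypes Gli3 and Sufu lie above 0 and Gli1 and Ptch1 below; the points of Sufu fall below 0 once the median of its chromosome is removed.

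BACH1 knockout cells were compared with control cells under each siRNA. Under control siRNA Gli3 and Sufu were higher and Gli1, Ptch1 and Smo lower in knockout cells, 5 of 5 genes called where 50.5% of all genes were, 24.2% higher and 26.3% lower. Under FEM1B siRNA the first 4 were called in the same directions and Smo was not, 4 of 5 against 54.6%, of which 28.2% were higher and 26.4% lower as shares of all genes. Of all genes, 60.3% had groups that did not overlap under control siRNA and 56.9% under FEM1B siRNA. The knockout contrast under control siRNA and the siRNA contrast in control cells share the sgCTRL_siCTRL libraries.

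Gli3 was higher in knockout cells by 0.58 ± 0.10 on the log2 scale under control siRNA (adjusted p = 5.15e-05) and by 0.68 ± 0.10 under FEM1B siRNA (adjusted p = 1.38e-05). Its libraries did not overlap between genotypes under either siRNA, and both calls held in all 20 alternatives. Ptch1 was lower by −0.49 ± 0.15 (adjusted p = 0.0121) and −0.94 ± 0.17 (adjusted p = 0.000118). Under control siRNA the Ptch1 libraries of knockout cells were spread from 10.0 to 16.2 CPM, and the call ended without replicate 2, the lowest of them (log2 fold change −0.34, adjusted p = 0.0835, the highest of a range from 0.000105).

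Gli1 was lower in knockout cells by −1.34 ± 0.48 under control siRNA (adjusted p = 0.0253) and by −1.49 ± 0.36 under FEM1B siRNA (adjusted p = 0.0018). The sums over 3 libraries were 13 counts (exact 95% Poisson interval 6.92 to 22.2) against 35 under control siRNA and 27 (17.8 to 39.3) against 84 under FEM1B siRNA. The groups did not overlap in either comparison. Reads of the overlapping genes may be among these counts, and Arhgap9 was also lower in knockout cells under control siRNA. The call under FEM1B siRNA held in all 20 alternatives. That under control siRNA ended in 5 of 19, with no filter on low counts (adjusted p = 0.052) and without replicate 1 or 2 of sgCTRL_siCTRL (0.0504 and 0.0857) or replicate 1 or 3 of sgBACH1_siCTRL (0.0603 and 0.0795), within a range of 0.0176 to 0.0857.

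Sufu was at 73.3, 75.4 and 77.7 CPM in sgBACH1_siCTRL and at 67.2, 71.8 and 67.3 CPM in sgBACH1_siFEM1B, above the control cells with the same siRNA in every library. It was higher by 0.33 ± 0.07 under control siRNA (adjusted p = 0.000682) and 0.26 ± 0.07 under FEM1B siRNA (adjusted p = 0.00455). The median gene of chromosome 19 was higher by 0.44 in each of these comparisons, more than Sufu was. With chromosome medians removed, Sufu turned to −0.11 ± 0.07 (adjusted p = 0.233) and −0.17 ± 0.07 (adjusted p = 0.0554), within ranges over the alternatives of 1.97e-05 to 0.233 and 0.00167 to 0.0554. The medians of the other members' chromosomes lay between −0.03 and 0.11.

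Smo was lower under control siRNA, at −0.15 ± 0.05 (adjusted p = 0.0259), and was at −0.08 ± 0.05 under FEM1B siRNA (adjusted p = 0.219). The first call ended without replicate 3 of sgCTRL_siCTRL (adjusted p = 0.115) or any 1 replicate of sgBACH1_siCTRL (0.0707, 0.0538 and 0.0612), within a range of 0.0123 to 0.115. With chromosome medians removed the second comparison was called (adjusted p = 0.0294, the lowest of a range up to 0.623).

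Markers of fibroblasts and mesenchyme, the cells that usually answer hedgehog ligands, differed between genotypes in both directions. Of 9 markers 3 were kept for testing, and the list summed to 18.5 to 25.3 CPM in control cells and 8.78 to 11.5 CPM in knockout cells. Most of the sum was Col1a1, which was lower in knockout cells under both siRNAs (−1.42 ± 0.10, adjusted p = 5.34e-10, and −0.93 ± 0.10, adjusted p = 3.04e-07), as was Col1a2 (−1.36 ± 0.56, adjusted p = 0.0488, and −2.62 ± 0.71, adjusted p = 0.00412). Pdgfra was higher under control siRNA, with 16, 8 and 10 counts against 1, 2 and 2 (2.73 ± 0.62, adjusted p = 0.00102), and was not called under FEM1B siRNA (0.75 ± 0.43, adjusted p = 0.151). Of the 6 markers not kept, Dcn, Lum, Pdgfrb and Thy1 had at most 6 counts in any library and none in knockout cells, and Col3a1 and Acta2 had 0 to 8 counts per library. Of 5 endothelial markers 1 was kept, and they summed to 0.299 to 2.14 CPM over all libraries. The kept one, Cdh5, had 7 to 12 counts per library in sgCTRL_siCTRL, 10 to 33 in sgCTRL_siFEM1B and 0 to 1 in knockout cells. It was called lower in knockout cells under both siRNAs (adjusted p = 0.000578 and 8.94e-05). However, Cdh5 was kept only through the control-cell libraries, where it is high, so the filter favoured these calls. The leukocyte marker Cd68 was lower in knockout cells too, by −0.56 ± 0.16 (adjusted p = 0.00605) and −1.38 ± 0.14 (adjusted p = 6.51e-08). Cd68, Col1a1 and Col1a2 thus moved in the direction of Gli1 and Ptch1, while Pdgfra moved the other way under control siRNA. The part of these cells in the results was not tested.

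Whether FEM1B siRNA moved the 5 genes differently in the genotypes was tested as the interaction, which subtracts the siRNA change of control cells from that of knockout cells. None of the 5 was called by edgeR, where 6.08% of all genes were, 3.48% higher and 2.60% lower. At an unadjusted p under 0.05 there were 0 by edgeR, 0 by limma voom and 1 by DESeq2, and after adjustment those tools also called 0. Ptch1 fell further in knockout cells by point estimate, with a difference of −0.45 ± 0.23 (adjusted p = 0.246) and an approximate 95% interval of −0.94 to 0.03. The interval was −1.61 to 1.33 for Gli1, −0.20 to 0.40 for Gli3, −0.09 to 0.22 for Smo and −0.28 to 0.14 for Sufu. The Gli1 interval is wide enough to hold a difference as large as its siRNA change.

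The rest of the pathway was read from 5 lists that together hold 76 further genes, of which 61 were kept for testing. With FEM1B siRNA 36 of the 61 were called in control cells, 13 higher and 23 lower, and 27 in knockout cells, 10 higher and 17 lower, where 45.0% and 41.7% of all genes were called. Between genotypes 34 were called under control siRNA, 16 higher and 18 lower, and 31 under FEM1B siRNA, 14 higher and 17 lower, against 50.5% and 54.6% of all genes.

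Among the ligands, Shh had no count in any library and Ihh 0 to 19 counts per library. Dhh, which encodes desert hedgehog, was the ligand measured well. It was at 39.1, 37.1 and 39.6 CPM in sgCTRL_siCTRL and 56.8, 53.6 and 49.8 CPM in sgCTRL_siFEM1B. In knockout cells it was at 23.7, 22.9 and 23.1 CPM and, with FEM1B siRNA, at 34.8, 37.9 and 37.1 CPM. FEM1B siRNA raised it by 0.47 ± 0.07 (adjusted p = 1.42e-05) for control and 0.66 ± 0.07 (adjusted p = 7.34e-07) for knockout cells. Knockout cells were lower by −0.73 ± 0.07 under control siRNA (adjusted p = 5.13e-08) and −0.55 ± 0.07 under FEM1B siRNA (adjusted p = 1.41e-06). The groups of each of these 4 comparisons did not overlap. The point estimates of Gli1 had the same signs, although its change with FEM1B siRNA in knockout cells was not called. Ptch1, the target with more counts, fell with FEM1B siRNA where Dhh rose, by −0.49 in control and −0.94 in knockout cells. Ptch1 was lower in knockout cells under both siRNAs, as Dhh was.

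Disp1, which releases the ligand, was lower under control siRNA in knockout than in control cells (−0.34 ± 0.08, adjusted p = 0.00178) and lower with FEM1B siRNA in control cells (−0.26 ± 0.08, adjusted p = 0.0147). Leaving out replicate 1 or 2 of sgCTRL_siCTRL ended the second call (adjusted p = 0.0514 and 0.0567, within a range of 0.00389 to 0.0567). Hhat, the enzyme that attaches palmitate to the ligand, had 1 count in each library of sgCTRL_siCTRL and 156 in all in sgBACH1_siCTRL. At equal depth that is a ratio of 54.1 (exact 95% interval 18.2 to 265). However, Hhat was kept only through the knockout libraries, where it is high, so the filter favoured this difference. With FEM1B siRNA in control cells its counts summed to 13 against 3, a ratio of 4.46 (1.23 to 24.4), and its edgeR call ended in 7 of 19 alternatives.

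Of the receptor partners and other membrane regulators, 8 of 12 were kept, and Gas1 had no count. Between genotypes 6 of 8 were called under control siRNA, 3 in each direction, and 5 under FEM1B siRNA, 2 higher and 3 lower, against 50.5% and 54.6% of all genes. The neighbouring genes Evc and Evc2, whose products form a complex at the base of the cilium that transmits the SMO signal, were lower in knockout cells. Evc fell from 22.8 ± 0.305 to 6.62 ± 0.849 CPM under control siRNA (log2 fold change −1.78 ± 0.13, adjusted p = 6.49e-10) and Evc2 from 33.5 ± 2.24 to 11.6 ± 0.308 CPM (−1.53 ± 0.08, adjusted p = 4.98e-12). Under FEM1B siRNA the changes were −1.39 ± 0.13 (adjusted p = 3.56e-08) and −1.54 ± 0.08 (adjusted p = 7.27e-12). Lrp2, an endocytic receptor that binds hedgehog ligands, was higher in knockout cells by 1.48 ± 0.20 (adjusted p = 4.48e-06) and 1.20 ± 0.22 (adjusted p = 0.000148). Adrbk1, the SMO kinase gene now named Grk2, was higher by 0.46 ± 0.05 (adjusted p = 1.23e-07) and 0.39 ± 0.05 (adjusted p = 9.41e-07).

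With FEM1B siRNA 2 of these 8 membrane genes were called in control cells, where 45.0% of all genes were: Adrbk1 at 0.21 ± 0.05 (adjusted p = 0.00147) and Evc at −0.31 ± 0.12 (adjusted p = 0.039), and the Evc call ended in 8 of 20 alternatives, where its adjusted p ranged from 0.00892 to 0.125. In knockout cells 4 were called, against 41.7% of all genes, 2 in each direction, among them Lrp2 at −0.68 ± 0.19 (adjusted p = 0.00755), Mgrn1 at 0.18 ± 0.06 (0.0141) and Adrbk1 at 0.14 ± 0.05 (0.0219). Of these the calls of Mgrn1 and Adrbk1 ended in 2 and 5 of 20 alternatives.

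All 19 listed kinases, scaffolds and ligases that act on GLI proteins were kept. With FEM1B siRNA 9 were called in control cells, 6 higher and 3 lower, and 7 in knockout cells, 3 higher and 4 lower, near the 45.0% and 41.7% of all genes called. Kif7, the ciliary kinesin-like scaffold of the GLI proteins, fell by 0.61 ± 0.14 on the log2 scale (adjusted p = 0.00174) for control and by 0.67 ± 0.14 (adjusted p = 0.000603) for knockout cells. Prkacb, a catalytic subunit of protein kinase A, whose phosphorylation starts GLI3 processing, fell by 0.42 ± 0.06 (adjusted p = 1.41e-05) and 0.40 ± 0.06 (adjusted p = 2.76e-05). Cul1, the scaffold of the ligase that receives the phosphorylated GLI3, fell by 0.40 ± 0.05 (adjusted p = 3.89e-06) and 0.34 ± 0.05 (adjusted p = 2.9e-05). Numb, an adaptor described in GLI1 ubiquitination, rose by 0.32 ± 0.06 (adjusted p = 0.000369) and 0.39 ± 0.06 (adjusted p = 7.3e-05), and Ulk3, a GLI kinase, rose by 0.41 ± 0.07 in control cells (adjusted p = 0.000148).

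Between genotypes 9 of these 19 were called under control siRNA, 4 higher and 5 lower, and 10 under FEM1B siRNA, 4 higher and 6 lower, near the 50.5% and 54.6% of all genes. Ulk3 was higher in knockout cells by 0.69 ± 0.07 (adjusted p = 1.36e-07) and 0.48 ± 0.07 (adjusted p = 1.12e-05), Cul3 by 0.30 ± 0.05 under control siRNA (adjusted p = 3.96e-05) and Kif7 by 0.53 ± 0.13 (adjusted p = 0.00252). Btrc, the F-box protein that recognises phosphorylated GLI3, was higher by 0.24 ± 0.06 under control siRNA (adjusted p = 0.00301), and with chromosome medians removed it was lower, at −0.19 (adjusted p = 0.0158, within a range of 0.000703 to 0.0171). Spop, a CUL3 adaptor for GLI proteins, was lower by −0.44 ± 0.05 under FEM1B siRNA (adjusted p = 1.25e-06) and Itch by −0.29 ± 0.06 (adjusted p = 0.000734). Csnk1a1 was lower there by −0.26 ± 0.05 (adjusted p = 0.000128), a call that ended with chromosome medians removed (adjusted p = 0.13, the highest of a range from 1.17e-07).

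**Figure D3:**
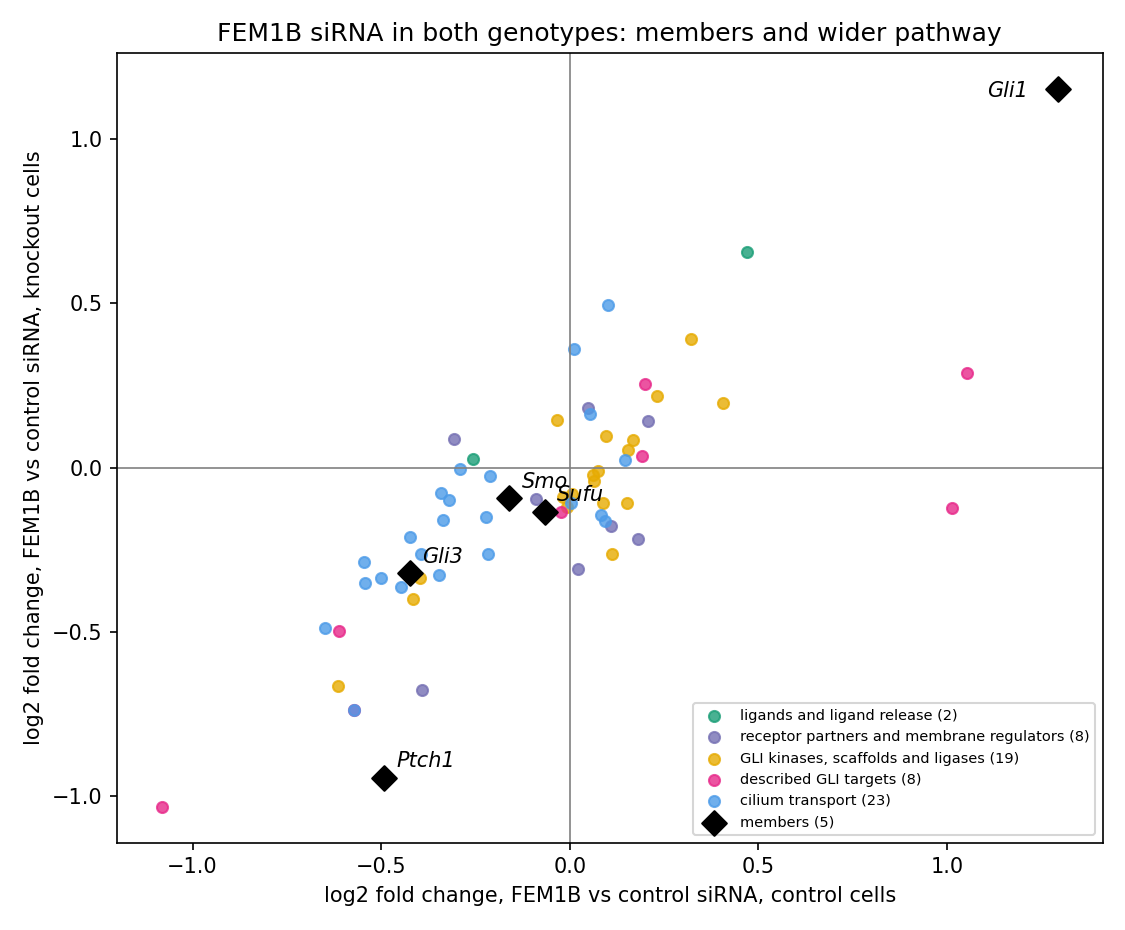
Log2 fold change with FEM1B siRNA in control cells (horizontal) and in BACH1 knockout cells (vertical) for the 5 tested members (black diamonds) and 60 further pathway genes (coloured points, by list), with Hhat left out because it had 3 counts in sgCTRL_siCTRL. The axes use separate libraries; Gli1 lies at 1.29 and 1.15, Ptch1 at −0.49 and −0.94.

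Of 16 described GLI targets other than Gli1 and Ptch1, 8 were kept, and Hhip, which like Ptch1 is a direct target, had at most 2 counts in any library. With FEM1B siRNA 6 of 8 were called in control cells, 4 higher and 2 lower, and 3 in knockout cells, 1 higher and 2 lower, where 45.0% and 41.7% of all genes were called. Bcl2, which encodes an inhibitor of apoptosis, fell from 40.7 ± 5.34 to 19.2 ± 1.86 CPM in control cells (log2 fold change −1.08 ± 0.09, adjusted p = 3.01e-08) and from 27.0 ± 0.716 to 13.2 ± 0.56 CPM in knockout cells (−1.03 ± 0.10, adjusted p = 1.82e-07). Ccnd1, cyclin D1, fell by 0.61 ± 0.07 on the log2 scale (adjusted p = 3.41e-07) and 0.50 ± 0.07 (adjusted p = 5.17e-06). Snai1, a transcription factor of the mesenchymal transition, rose by 1.05 ± 0.25 in control cells (adjusted p = 0.00209), and Foxf2, a mesenchymal transcription factor, rose by 0.25 ± 0.07 in knockout cells (adjusted p = 0.00529). The targets therefore went both ways with FEM1B siRNA, with a median of 0.08 in control cells and −0.13 in knockout cells, where the medians of all genes were 0.00 and 0.02. Many of these genes also answer to other pathways.

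Between genotypes 6 of the 8 targets were called under control siRNA, 5 higher and 1 lower, and 5 under FEM1B siRNA, 4 higher and 1 lower. Of all genes 50.5% and 54.6% were called, 24.2% and 28.2% higher. Jag2, a Notch ligand, stood out. It was at 2.0002, 3.11 and 2.76 CPM in sgCTRL_siCTRL and at 87.3, 83.9 and 88.6 CPM in sgBACH1_siCTRL, higher by 5.05 ± 0.11 on the log2 scale (adjusted p = 5.86e-18). With FEM1B siRNA it was at 5.17, 5.27 and 5.42 CPM in control cells, a rise of 1.01 ± 0.14 (adjusted p = 1.09e-05), and at 72.4, 83.2 and 83.1 CPM in knockout cells, a change of −0.12 ± 0.07 that was not called (adjusted p = 0.192). Foxf2 was higher in knockout cells by 0.56 ± 0.07 (adjusted p = 1.46e-06) and 0.61 ± 0.07 (adjusted p = 3.66e-07), and Snai1 by 1.22 ± 0.25 under control siRNA (adjusted p = 0.000394). Bcl2 was the target called lower, at −0.59 ± 0.09 (adjusted p = 2.34e-05) and −0.54 ± 0.10 (adjusted p = 0.000206). Ccnd1 was higher by 0.20 ± 0.07 under FEM1B siRNA (adjusted p = 0.0123), a call that ended in 4 of 20 alternatives, with an adjusted p of 0.000623 to 0.135.

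Genes of transport along the cilium, the organelle through which SMO reaches the GLI proteins, were called lower more often than higher with FEM1B siRNA in each genotype. In control cells 16 of 23 fell and none rose, where 22.9% of all genes were called lower. In knockout cells 9 of 23 fell, 3 rose and 11 were not called, where 19.8% were called lower. The median log2 fold changes of the list were −0.32 and −0.16, against 0.00 and 0.02 for all genes. Wdr35, a subunit of the IFT-A complex that carries cargo back to the cell body, was at 41.7 ± 0.614 CPM in sgCTRL_siCTRL and 28.02 ± 3.70 CPM in sgCTRL_siFEM1B, a log2 fold change of −0.57 ± 0.09 (adjusted p = 3.2e-05). In knockout cells it went from 26.5 ± 2.28 to 15.9 ± 0.938 CPM (−0.74 ± 0.10, adjusted p = 5.6e-06).

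Ift52, a subunit of the IFT-B complex that carries cargo outward, fell by 0.54 ± 0.06 (adjusted p = 1.14e-06) and 0.35 ± 0.06 (adjusted p = 0.000214), and Kif3a, a motor of outward transport, by 0.35 ± 0.06 (adjusted p = 4.14e-05) and 0.33 ± 0.06 (adjusted p = 0.000101). Ift140, also of IFT-A, fell by 0.55 ± 0.08 in control cells (adjusted p = 2.94e-05), and Dync2h1, the heavy chain of the motor of return transport, by 0.49 ± 0.10 in knockout cells (adjusted p = 0.000743). The 3 that rose in knockout cells were Ift27, Ift80 and Inpp5e, named after their values were seen, at 0.50 ± 0.11 (adjusted p = 0.0011), 0.36 ± 0.08 (0.00127) and 0.16 ± 0.05 (0.012). No gene of the list was called in the interaction by edgeR, limma voom or DESeq2, with 6, 7 and 5 genes at an unadjusted p under 0.05. Leaving out single libraries, the count of genes that fell ranged from 11 to 16 in control cells and from 9 to 10 in knockout cells, and without replicate 3 of sgCTRL_siFEM1B 1 gene rose in control cells. This count was added after the data were seen.

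**Figure D4:**
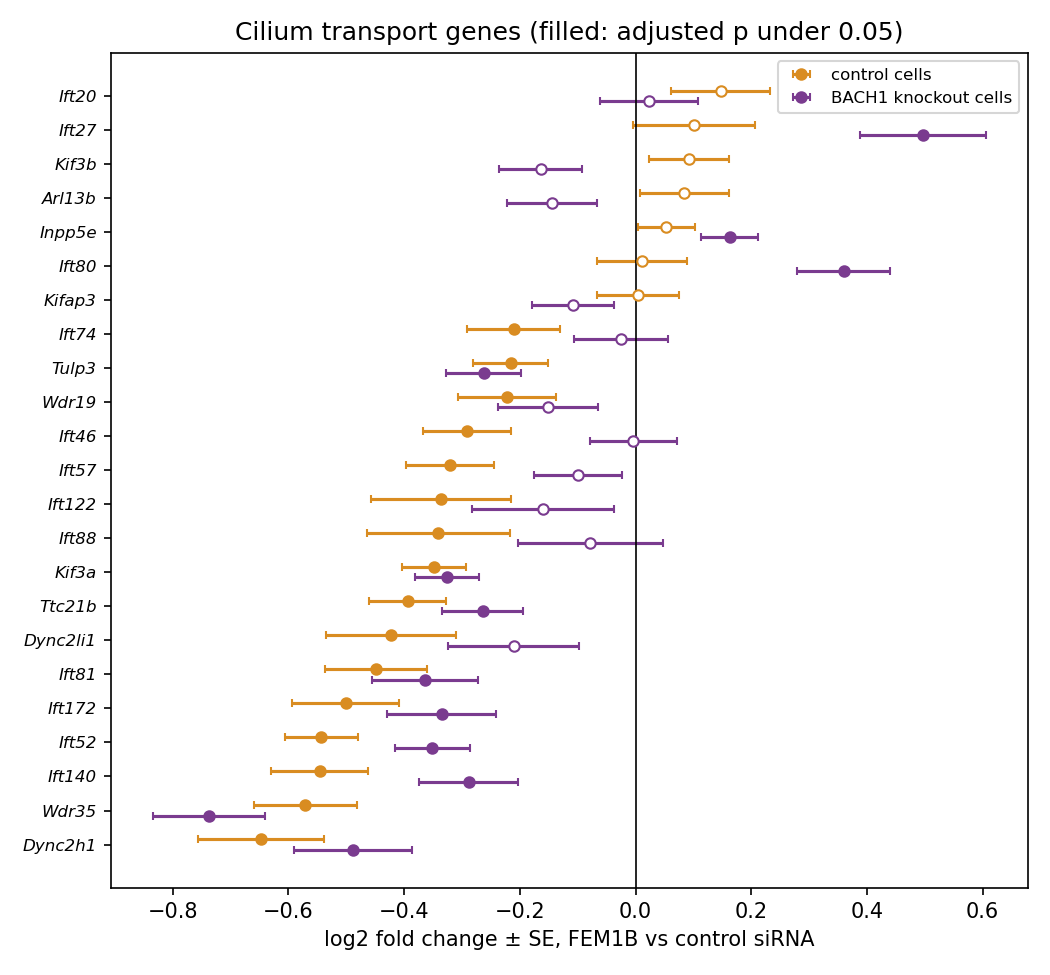
Log2 fold change with SE of the 23 cilium transport genes with FEM1B siRNA, in control cells (orange) and BACH1 knockout cells (purple), filled where the adjusted p was under 0.05. In control cells 16 filled points lie below 0 and none above; in knockout cells 9 lie below and 3 above.

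Between genotypes the cilium genes were mixed, with 3 higher and 7 lower of 23 under control siRNA and 3 and 6 under FEM1B siRNA, where 50.5% and 54.6% of all genes were called. Wdr35 was lower in knockout cells by −0.65 ± 0.09 (adjusted p = 4.53e-06) and −0.82 ± 0.10 (adjusted p = 6.12e-07), and Kif3b by −0.54 ± 0.07 (adjusted p = 2.54e-06) and −0.79 ± 0.07 (adjusted p = 1.38e-08). Ttc21b and Ift80 were lower under control siRNA by −0.57 ± 0.07 (adjusted p = 6.66e-07) and −0.63 ± 0.08 (adjusted p = 1.69e-06). Dync2h1 and Ift46 were higher under FEM1B siRNA, by 0.71 ± 0.11 (adjusted p = 2.01e-05) and 0.55 ± 0.08 (adjusted p = 4.9e-06).

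The genes whose log2 CPM followed each member most closely over the 12 libraries were taken from 9677 genes (9678 for Gli1) whose mean log2 CPM reached 3. For Gli1 they were Fam3c (Pearson r = 0.97), Crat (0.96) and Micall2 (0.96), and for Gli3 Abcg2 (0.98), Vps26a (0.98) and Capn7 (0.97). For Ptch1 they were Shroom4 (0.98), Ap2a2 (0.98) and Papola (0.97). Smo was most like Apopt1 (0.94), Stard5 (0.93) and E2f4 (0.93), and Sufu most like Wnt5a (0.97), Unc5b (0.96) and Atp2b1 (0.96). The libraries of a group share genotype and siRNA, so these values describe the pattern over 4 groups more than 12 separate points. No other hedgehog gene was among them, but genes below that mean, Gli1 included, could not be listed. Among the members r was highest for Gli3 with Sufu (0.85) and Ptch1 with Smo (0.82). It was lowest for Gli1 with Gli3 (−0.91) and with Sufu (−0.82).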

How the data were processed

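The 12 libraries were made with a stranded mRNA kit (per the labels' protocols). The authors deposited 1 table of raw gene counts, keyed by symbol. Tools named in the submitters' processing notes are featureCounts 1.6.4 and Subread, with mm10 as the build, and also DESeq2 1.26.0 and SAMtools 1.9. Neither the annotation nor the use of strand is given in the sources used here, which matters where genes overlap. Symbols with low counts were removed with edgeR's filterByExpr (minimum count 10), leaving 13281 of 24421. Some items that entered the counts are not reported here by name.

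Counts were scaled by TMM and tested with edgeR 4.0.16 (R 4.3.3, quasi-likelihood, 1 mean per group, 8 residual degrees of freedom, two-sided), with Benjamini-Hochberg adjustment over all genes kept and a threshold of 0.05. The SE is the absolute log2 fold change over the square root of F. Alternatives were RLE factors, DESeq2 1.42.0, limma 3.58.1 voom, other filters, subsets of libraries, a replicate block and chromosome medians removed, using RefSeq positions. No replicates held identical values. Gene positions, exon lengths and overlaps are from GENCODE M21 (mm10). The script was tested on simulated data.

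Named genes were the members, Fem1b and Bach1, up to 4 called genes of each list and comparison by smallest p, and the 3 genes most correlated with each member. Others, where named, were chosen after their values were seen. The members and lists were chosen with earlier results of these data known.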

Additional observations from a re-analysis of the deposited data

Results flagged for a closer look

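The siRNA effect differed between the genotypes for Jag2 and Spop, among the genes of the wider pathway, by the interaction test of edgeR. For Jag2 the difference, knockout minus control cells, was −1.14 ± 0.16 on the log2 scale (adjusted p = 0.00044). For Spop it was −0.26 ± 0.08 (adjusted p = 0.0489). The call of Spop ended in 11 of 19 alternatives, 10 of which left out 1 library and 1 of which was the replicate block, while that of Jag2 held in all.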

How the results depend on the processing

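Without 1 library, direction and side of the threshold stayed the same for 283 of the members' fold changes. Of the rest, 13 kept their direction and lost a call, 2 gained a call and 2 reversed. Under other alternatives 185 stayed the same, 3 kept their direction and lost a call, 2 gained a call and 2 reversed. The 2 reversed under other alternatives, both of Sufu, lost their calls as well. Sufu reversed with chromosome medians removed, to −0.11 and −0.17 between genotypes under control and FEM1B siRNA, and with FEM1B siRNA in control cells it ranged without single libraries from −0.13 to 0.032, the latter without replicate 3 of sgCTRL_siFEM1B; the chromosome median exceeded Sufu's own change between genotypes. Likewise the Gli1 interaction ranged from −0.41 to 0.21 (without replicate 2 of sgBACH1_siFEM1B) and Fem1b between genotypes under FEM1B siRNA from −0.20 to 0.015 (without replicate 2 of sgCTRL_siFEM1B). Btrc between genotypes under control siRNA turned to −0.19 with chromosome medians removed. With chromosome medians removed 2 members instead of 4 were called with FEM1B siRNA in control cells. Without single libraries the members called ranged from 3 to 5 between genotypes under control siRNA and from 1 to 3 with FEM1B siRNA in knockout cells, the interaction calls from 297 to 1859 of all genes and from 1 to 9 of the wider pathway, the highest without replicate 2 of sgBACH1_siFEM1B; the cause was not tested. With no filter on low counts 1393 genes were called in the interaction, against 807. Same-numbered replicates did not deviate together in any of 18 pairs: the correlation of their deviations lay between −0.11 and 0.08. With the replicate block 1 instead of 3 wider genes was called in the interaction, and no call of a member changed. The low counts of Gli1 and Gli2 limit what can be said of them.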
